A study of Rattus norvegicus with 2 samples.

Results

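Heat shock proteins and their partners keep other proteins folded. The 10 genes described here were chosen by name for that role: Hspa1a, Hspa1b, Hspb1, Dnajb1, Hsph1, Hsp90aa1 and Bag3, which cells switch on under heat, injury or other proteotoxic stress, and Hspa8, Hspd1 and Hspe1, which most cells express at rest. All 10 were among the 17337 genes of the deposited table. The products of Hspd1 and Hspe1 work in the mitochondrion and those of the other 8 mainly in the cytosol and nucleus. The genes were compared because inducible chaperones can rise within the time a tissue takes to be dissected. The constitutive ones served as the reference, and whether they move less was not tested.

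The tissue was acetabular cartilage, the lining of the hip socket, from 3-week-old Wistar rats. Control rats moved freely from birth. DA-DDH rats, a model of hip dislocation in developmental dysplasia of the hip, were swaddled for 10 days after birth and moved freely afterwards. The swaddling held the hips adducted and extended and the knees extended. The paper states that the tape was changed regularly, with several hours of release each time. Each group was sequenced as 1 library of pooled RNA, from 4 rats in control and 5 in DA-DDH, so no difference below has a replicate check and none was tested. The libraries held 796723 reads in control and 833869 in DA-DDH, and 4375 genes reached 30 reads in the library with more. Markers of cartilage cells were present in both libraries, but Col2a1, the main cartilage collagen, took 29.3% of the control and 11.4% of the DA-DDH reads. All 12 chondrocyte markers that reached 30 reads were lower in DA-DDH, and 11 of 12 skeletal muscle markers and all 9 endothelial markers were higher. Of all 4375 genes, 2303 were higher and 2072 lower with the main scaling described below. Actn3, Tnnc2, Mylpf and Casq1 among the muscle markers and Tek, Emcn and Vwf among the endothelial ones reached 30 reads in DA-DDH only. Their ratios were thus favoured by the choice of genes. The part of these marker differences in the values below was not tested. In bulk RNA fewer cells of a type cannot be told apart from less RNA per cell.

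Chaperone genes respond to stress through heat shock factor, chiefly the product of Hsf1. In resting cells HSP70 and HSP90 hold this factor inactive. When misfolded proteins occupy the chaperones the factor is freed, forms trimers and binds heat shock elements, which are inverted repeats of the letters GAA. In cartilage, whose cells secrete large amounts of collagen and lie in a tissue with few vessels, HSP70 has been linked to the survival of chondrocytes under heat and load.

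The RefSeq promoter windows of the GRCr8 build, from 250 bases before to 50 bases after the gene start, are shown first because they tell which members carry such elements. A window was available for 8 of the 10 members. Both strands were searched for 3 repeats (GAANNTTCNNGAA or TTCNNGAANNTTC), which 4 of the 8 held, and for 2 repeats (GAANNTTC or TTCNNGAA), which 7 of the 8 held. Every match of the longer motifs contains matches of the shorter ones. Of all 33469 windows, 0.798% held 3 repeats and 15.9% held 2. The 3-repeat matches lay in the windows of constitutive and mitochondrial genes and of Hsph1, and the members with 2 repeats at most were Hspb1, Dnajb1 and Bag3. The window of Hspa1a held neither, which says only that these letters are not in it. In the lines below the matched letters are in capitals, and each sequence reads 5′ to 3′ along its own gene, on the minus strand for Hspd1 and Hspb1 and on the plus strand for the others.
Hspe1, chr9:64084247-64084294: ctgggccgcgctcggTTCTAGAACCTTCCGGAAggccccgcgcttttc
Hspd1, chr9:64084247-64084287: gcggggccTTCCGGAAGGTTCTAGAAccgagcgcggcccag
Hspa8, chr8:50080444-50080486: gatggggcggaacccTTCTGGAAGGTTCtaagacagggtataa
Hspa8, chr8:50080286-50080328: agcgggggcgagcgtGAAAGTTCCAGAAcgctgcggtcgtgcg
Hsph1, chr12:10427317-10427359: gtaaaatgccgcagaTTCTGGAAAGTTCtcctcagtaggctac
Bag3, chr1:192533313-192533350: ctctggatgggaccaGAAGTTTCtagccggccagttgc
Hspb1, chr12:26432388-26432445: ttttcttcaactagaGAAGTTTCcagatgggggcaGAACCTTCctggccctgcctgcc
The capitals of Hspe1 and Hspd1 are 1 and the same stretch of 18 bases, chromosome 9 from 64084262 to 64084279, read from opposite strands. These genes are transcribed away from each other, and in the deposited rn6 annotation their starts lie 290 bases apart on chromosome 9.

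Most of these genes had nearly the same level in both libraries. Of the 7 members that reached 30 reads, 0 differed by more than 2-fold in either direction. Over all 4375 genes at that number of reads, 4.82% exceeded 2-fold upwards in DA-DDH, 3.04% exceeded it downwards and 7.86% did either, so a count of 0 among 7 is near this background. These were 211 genes upwards and 133 downwards, and 638 and 47 with total-count scaling, which puts Dnajb1 past 2-fold. Ratios are DA-DDH over control on the log2 scale after TMM scaling, which sets the bulk of genes equal, and scaling to total counts instead would add 0.43 to each. Intervals are 95% exact conditional binomial intervals, computed with TMM scaling, that cover counting error only. With that scaling all 7 included 0, and for 6 of the 7 the whole interval lay within 2-fold. The median ratio of the 7 members was -0.06, beside 0.03 over all 4375 genes, of which 2303 were above 0 and 2072 below.

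**Figure D1:**
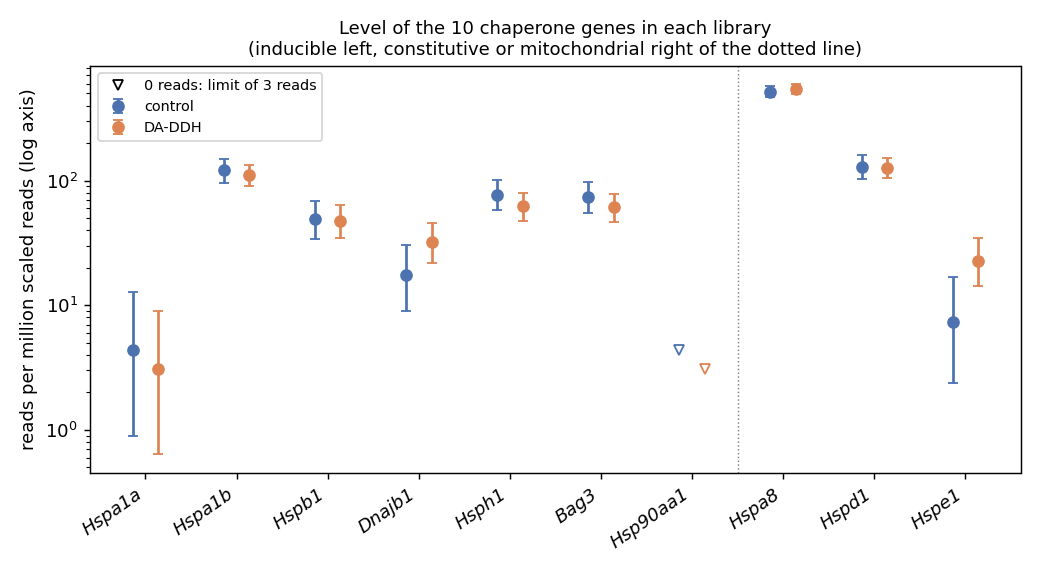
CPM, reads divided by scaled library size and multiplied by 1000000 (log axis), of the 10 chaperone genes in the control and DA-DDH library, with exact Poisson 95% intervals for counting error. Hspa8 stands highest in both libraries, near 518 and 545, and the open triangles mark the level of 3 reads for Hsp90aa1, which had 0.

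Hspa1a and Hspa1b encode the stress-inducible HSP70 and are near-identical neighbours in the genome. In rn6, Hspa1b lies on chromosome 20 from 4875834 to 4881751 and Hspa1a from 4955668 to 4959762, both on the minus strand. Hspa1b had 83 reads in control and 107 in DA-DDH, a log2 ratio of -0.12 (interval -0.55 to 0.31). These are 121 and 111 CPM, and the difference was within counting error. Hspa1a had 3 reads in each library, too few for a ratio, with an interval from -3.39 to 2.41. Since the counting of reads that fit both copies is not described, the reads of the pair are best read as a sum, which was 86 in control and 110 in DA-DDH. If reads that fit both copies were dropped, they are missing from this sum too. The annotation of Hspa1a is broken into 79 exons with a median gap of 1 base between them, and it overlaps Hspa1l, which lies on the opposite strand and had 0 reads in both libraries. Hspa1b is annotated as a single exon of 5918 bases.

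Hsph1 and Bag3 encode nucleotide exchange factors, which make HSP70 release its client proteins, and Bag3 also directs clients to autophagy. Hsph1 (chromosome 12, 6322685 to 6341898) had 53 reads in control and 60 in DA-DDH, a log2 ratio of -0.31 (interval -0.87 to 0.25). Bag3 (chromosome 1, 199941258 to 199965191) had 51 and 59 reads, a ratio of -0.28 (interval -0.85 to 0.29). Both ratios were within counting error, and with total-count scaling they lay above 0, at 0.11 and 0.14. Their ratios stood at percentiles 23.0 and 25.2 of the 4375 genes.

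Hspb1 encodes a small heat shock protein that binds unfolding proteins without ATP and steadies actin filaments. It lies on chromosome 12 from 23839390 to 23841051 and had 34 reads in control and 46 in DA-DDH, a log2 ratio of -0.06 (interval -0.73 to 0.63). Its scaled levels were 49.5 and 47.6 CPM, almost equal.

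Dnajb1 encodes the HSP40 partner that hands clients to HSP70 and starts its ATP cycle. It lies on chromosome 19 from 24747178 to 24750919 and had 12 reads in control and 31 in DA-DDH. Its log2 ratio of 0.86 was the largest of the 7 members at 30 reads, at percentile 92.8 of the 4375 genes, but its interval ran from -0.12 to 1.97. It reached 30 reads in DA-DDH only, so this ratio was favoured by the choice of genes. Hspa1b and Hsph1, whose products work with it, lay on the other side of 0 with TMM but not with total-count scaling.

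Hspa8 encodes HSC70, the constitutive HSP70 that folds new proteins and uncoats clathrin vesicles. It had 356 reads in control and 527 in DA-DDH, a log2 ratio of 0.07 (interval -0.12 to 0.27), the tightest interval among the members. With total-count scaling the ratio was 0.50, above this interval. Its annotation joins the gene on chromosome 8, from 44989401 to 44993261, with single exons of 2100 bases on chromosome 11 and 2099 bases on chromosome 6. The RefSeq table of GRCr8 names 33 pseudogenes of Hspa8, so reads that fit several places may have been lost or shared.

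Hspd1 and Hspe1 encode HSP60 and HSP10, which form a folding chamber and its lid inside mitochondria. Hspd1 (chromosome 9, 61680530 to 61690956) had 89 reads in control and 123 in DA-DDH, a log2 ratio of -0.03 (interval -0.43 to 0.38). With total-count scaling its ratio was 0.40. Hspe1 (chromosome 9, 61691246 to 61694102) had 5 and 22 reads, a ratio of 1.57 with an interval from 0.21 to 3.40. With TMM scaling it was the only member whose interval did not include 0, and its 22 reads were too few to enter the counts above. Per 100 reads of Hspd1 there were 5.62 reads of Hspe1 in control and 17.9 in DA-DDH. The odds ratio was 3.17 (exact conditional interval 1.11 to 11.1), a comparison of 2 libraries that was chosen after the values were seen. The genes that share the 18 bases shown above thus had different ratios, on few reads of Hspe1. The table of gene names lists 20 pseudogenes of Hspd1 and 1 of Hspe1.

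**Figure D2:**
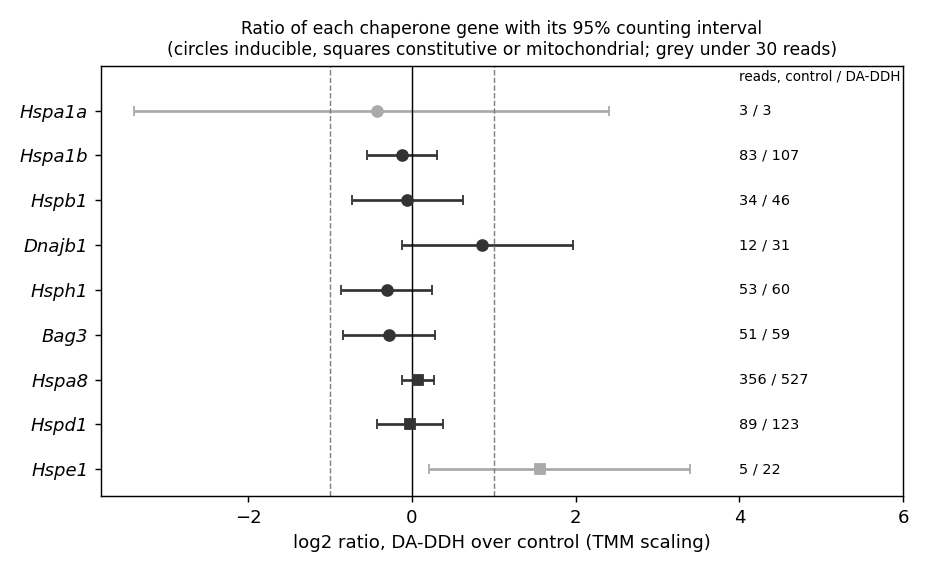
Log2 ratio of DA-DDH over control for the 9 members with at least 1 read (x axis), with 95% exact conditional binomial intervals and the reads of both libraries at the right. Points lie between -0.31 and 0.86 for the 7 members with 30 reads, and Hspe1 stands apart at 1.57 on 5 and 22 reads.

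Hsp90aa1, the inducible form of cytosolic HSP90, had 0 reads in both libraries, and 3 reads, taken as the limit that a 0 allows for counting error, would be 4.36 CPM in control and 3.10 in DA-DDH. This 0 is no measurement of absence. The annotation gives the gene in 2 places on chromosome 6, from 135044841 to 135050369 and from 135107265 to 135112793, each with 11 exons of the same lengths, 62424 bases apart. Of 235 genes whose exon lengths are given at 2 places in the same order, 204 (86.8%) had 0 reads in both libraries, beside 29.5% of the 17100 other genes, and no such gene had more than 93 reads. The count of these genes was made after the 0 of Hsp90aa1 was seen. Hsp90ab1, the constitutive form of HSP90, has its exons at 1 place (chromosome 9, 17817791 to 17823163) and had 671 and 956 reads, though RefSeq names 23 pseudogenes of it and 16 of Hsp90aa1. Its log2 ratio was 0.02 (interval -0.13 to 0.16). No ratio of inducible to constitutive HSP90 could therefore be given.

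Levels of different genes were compared as CPM per kilobase of annotated exon. On this scale Hspa8 had the highest level of the members, 82.2 in control and 86.5 in DA-DDH. Counting its exons on chromosome 8 alone gives 246 and 259, and Hsp90ab1 was higher still at 418 and 423. Hspd1 at 58.1 and 57.1 and Hspb1 at 55.6 and 53.5 followed in control and DA-DDH, and their counting intervals overlapped in each library. In control, Bag3 at 31.9, Hsph1 at 22.5 and Hspa1b at 20.4 came next, each overlapping its neighbour, then Hspe1 at 13.7, Dnajb1 at 8.02 and Hspa1a at 1.10. In DA-DDH, Hspe1 at 42.9 stood before Bag3 at 26.2, Hspa1b at 18.7, Hsph1 at 18.1 and Dnajb1 at 14.7, again with neighbours that overlapped. Stress-inducible chaperones were thus measurable in both libraries. Hspb1 was number 889 of 17337 genes per kilobase in control and 876 in DA-DDH, and Hspa1b number 2823 and 3067. The level of Hspa1b was divided by its annotated exon of 5918 bases, beside 2102 bases for Hspa8 on chromosome 8. Reads shared with Hspa1a may also be missing, so its level and place may be too low.

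Inducible and constitutive members were compared within each library, since such a ratio does not depend on how the libraries are scaled. A change shared by both sets would not show in it, and the windows of Hspa8, Hspd1 and Hspe1 also hold the heat shock letters. The 7 inducible members summed to 236 reads in control and 306 in DA-DDH. To this sum Hsp90aa1 added 0 reads and Hspa1a 3 in each library, so it holds no reads of inducible HSP90. Per 100 reads of Hspa8 the sum was 66.3 and 58.1, a log2 odds ratio of -0.19 (exact conditional interval -0.51 to 0.13). Per 100 reads of Hspa8, Hspa1b gave 23.3 in control and 20.3 in DA-DDH, Hsph1 14.9 and 11.4, Bag3 14.3 and 11.2, and Hspb1 9.55 and 8.73. Dnajb1 went the other way, with 3.37 and 5.88. Each of these intervals included 0, so a difference between the libraries was not detectable at this depth. The interval of the sum does not reach a 2-fold difference in either direction, for counting error only. The median log2 ratio of the 5 inducible members with 30 reads was -0.12, with 4 of 5 below 0, but 0.30 with total-count scaling. The median of the 2 constitutive ones with 30 reads was 0.02, and 0.45 with total-count scaling.

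**Figure D3:**
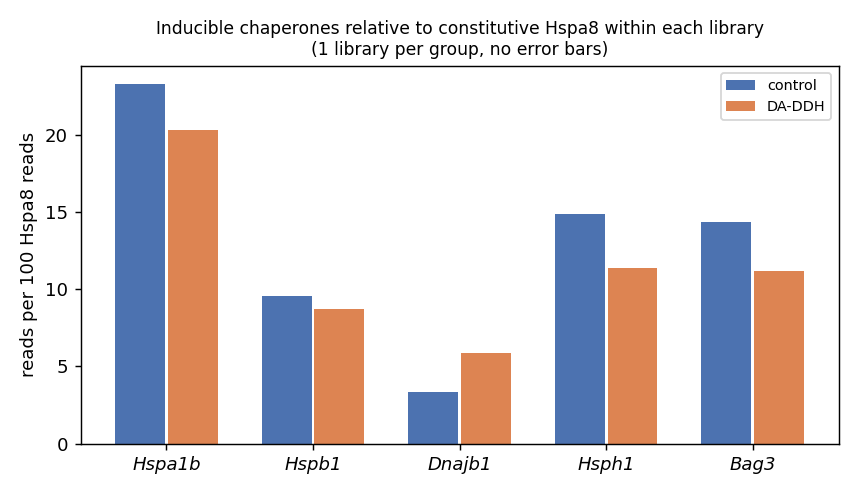
Reads of 5 inducible chaperone genes per 100 reads of Hspa8 (y axis) in the control and the DA-DDH library, without error bars since each group has 1 library. Bars of Hspa1b, Hspb1, Hsph1 and Bag3 are a little lower in DA-DDH and those of Dnajb1 higher, all within counting error.

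Immediate early genes, which also rise within minutes of handling, had another pattern in the same libraries. Of the 15 on the list with 30 reads, 13 were below 0, beside 2072 of all 4375 genes. In DA-DDH 8 were more than 2-fold lower, beside 3.04% of all genes, and 6 with total-count scaling, beside 47 genes of all. Fosb, Ier2, Btg2 and Zfp36 reached 30 reads in control only, so their ratios were favoured by the choice of genes. The median log2 ratio of the 15 was -1.24, and -0.82 with total-count scaling. It was -0.81 with a minimum of 10 reads, -0.85 with a mean of 15, -0.80 with no minimum and -1.45 with 100. The transcription factor genes Fosb, Fos and Egr1 had 169, 173 and 212 reads in control and 13, 49 and 94 in DA-DDH. The listed genes summed to 1824 and 1201 reads. Per 100 of these reads, the inducible chaperones gave 12.9 in control and 25.5 in DA-DDH, a log2 odds ratio of 0.98 (exact conditional interval 0.71 to 1.25). The chaperones thus stayed near the bulk of genes while the immediate early genes were lower. With 1 library a group, the handling of a pool of tissue and the condition cannot be told apart in either set.

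Across 9 lists of chaperones, cochaperones and their regulators, 40 of the 81 genes in the table apart from the members reached 30 reads, and 77 had at least 1 read. Of the 40, 15 were above and 25 below 0, beside 2303 above and 2072 below of all 4375 genes. Of the 40, 0 exceeded 2-fold, beside 7.86% of all 4375 genes. The median was -0.09. With total-count scaling 33 were above 0, the median was 0.34 and 2 exceeded 2-fold (Ahsa1 and Dnajc21). Over all 4375 genes that scaling gave a median of 0.45, with 638 genes more than 2-fold higher and 47 lower. Hsf1 had 24 reads in control and 37 in DA-DDH (log2 ratio 0.13, interval -0.65 to 0.94), and Hsbp1, which encodes a protein that binds the trimeric factor, had 25 and 32 (-0.13). The regulators themselves were thus measured on few reads.

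Among HSP90 cochaperones, 5 of 9 were above 0. Ahsa1, whose product stimulates the ATPase of HSP90, had 17 and 41 reads, a log2 ratio of 0.76 (interval -0.07 to 1.69). Ptges3, which encodes the cochaperone p23, had 104 and 103 reads at -0.50 (interval -0.91 to -0.10), and Ppid, a cyclophilin partner, 43 and 39 at -0.63 (interval -1.30 to 0.03). With total-count scaling Ptges3 was at -0.08, above its interval, and Ppid at -0.20. Stip1, the adaptor between HSP70 and HSP90, was at 0.30. Ahsa1 and Dnajb1 thus had the highest ratios of chaperone genes with 30 reads, both on fewer than 20 control reads. Both reached 30 reads in DA-DDH only, so both ratios were favoured by the choice of genes.

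Among J domain genes, which recruit HSP70 as Dnajb1 does, 5 of 10 were above 0. They ranged from Dnajc9, a histone chaperone, at -0.83 (32 and 25 reads, interval -1.66 to -0.05) to Dnajc21, a ribosome biogenesis factor, at 0.68 (14 and 32 reads). Dnajc9 reached 30 reads in control only and Dnajc21 in DA-DDH only, so both ratios were favoured by the choice of genes. With total-count scaling Dnajc9 was at -0.41 and Dnajc21 at 1.10. Dnaja1, a main cytosolic J protein, was at -0.10 (54 and 71 reads). All 4 HSP70 partners with 30 reads lay below 0, though their median turned from -0.25 to 0.17 with total-count scaling, among them St13 at -0.28, Stub1, the ubiquitin ligase CHIP, at -0.26, and Bag6 at -0.24. Their intervals each included 0. Hspa4, a relative of Hsph1, had 140 and 176 reads at -0.16 (interval -0.49 to 0.17).

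The cytosolic chaperonin TRiC, which folds actin and tubulin, had 3 of 8 genes above 0, with a median of -0.09 that became 0.34 with total-count scaling. Tcp1 had 86 and 76 reads at -0.67 (interval -1.13 to -0.21), Cct3 was at -0.53 and Cct6a at -0.49, whereas Cct4 was at 0.31 and Cct5 at 0.16. With total-count scaling Tcp1 was at -0.24, Cct3 at -0.11, Cct6a at -0.07, Cct4 at 0.73 and Cct5 at 0.59. The subunits of this complex therefore had ratios on both sides of 0. In the endoplasmic reticulum, the HSP70 relative Hspa5 had 454 and 535 reads at -0.25 (interval -0.44 to -0.07) with TMM and 0.17 with total-count scaling, and the HSP90 relative Hsp90b1 803 and 1079 at -0.07. In mitochondria, Hspa9 had 97 and 132 reads at -0.05 (interval -0.44 to 0.35), close to Hspd1, and Trap1 20 and 35 at 0.31.

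No other small heat shock protein reached 30 reads. Hspb6 had 10 reads in control and 24 in DA-DDH, Cryab 7 and 16, Hspb7 11 and 15, and Hspb8 16 and 23. Hspb6, Hspb7 and Cryab are abundant in striated muscle. The listed skeletal muscle markers summed to 787 reads in control and 2410 in DA-DDH, with a median log2 ratio of 1.43 over 12 genes. Of these, Actn3, Tnnc2, Mylpf and Casq1 reached 30 reads in DA-DDH only. The median was 1.26 with a minimum of 10 reads or none, 1.54 with 100, and 1.85 with total-count scaling. The part of muscle in the small counts of Hspb6, Cryab, Hspb7 and Hspb8 was not tested. Hspb1, which muscle also makes, was at -0.06.

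Clearance of damaged proteins and the oxidative stress response were read beside the chaperones. Of 14 ubiquitin and proteasome genes, 8 were above 0, with a median of 0.15, while the summed reads of the list gave -0.13 (interval -0.22 to -0.04). The median was 0.01 with a minimum of 10 reads and -0.24 with 100, so no direction was read from it. Ubb, a polyubiquitin gene that heat shock induces, had 630 and 749 reads at -0.24 (interval -0.40 to -0.09) with TMM scaling and at 0.18 with total-count scaling. Of 8 oxidative stress genes, 7 were above 0, with a median of 0.52 and 0 past 2-fold with TMM scaling. With total-count scaling the median was 0.94 and 3 of the 8 were past 2-fold (Nfe2l2, Txn1 and Hmox1). Over all 4375 genes, 638 were more than 2-fold higher with that scaling. These 3 genes and Sod1 reached 30 reads in DA-DDH only, so their ratios were favoured by the choice of genes. With TMM scaling, the genes with 30 reads in both libraries were lower, Txnrd1 at -0.10, Prdx1 at 0.15, Sod2 at 0.33 and Cat at 0.51. Hmox1, the heme oxygenase that both oxidants and heat induce, had 16 and 35 reads at 0.62 (interval -0.25 to 1.59), Txn1 19 and 46 at 0.77 (interval -0.02 to 1.64) and Nfe2l2, the regulator of that response, 25 and 64 at 0.85 (interval 0.18 to 1.59). Macrophage markers, which were at a median of 1.51 over 4 genes in the same libraries, are a further value that moved with these, and its part was not tested. Of the 4 markers, Csf1r, Cd14 and Mrc1 also reached 30 reads in DA-DDH only, and Lyz2, with 76 and 288 reads, was at 1.43.

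**Figure D4:**
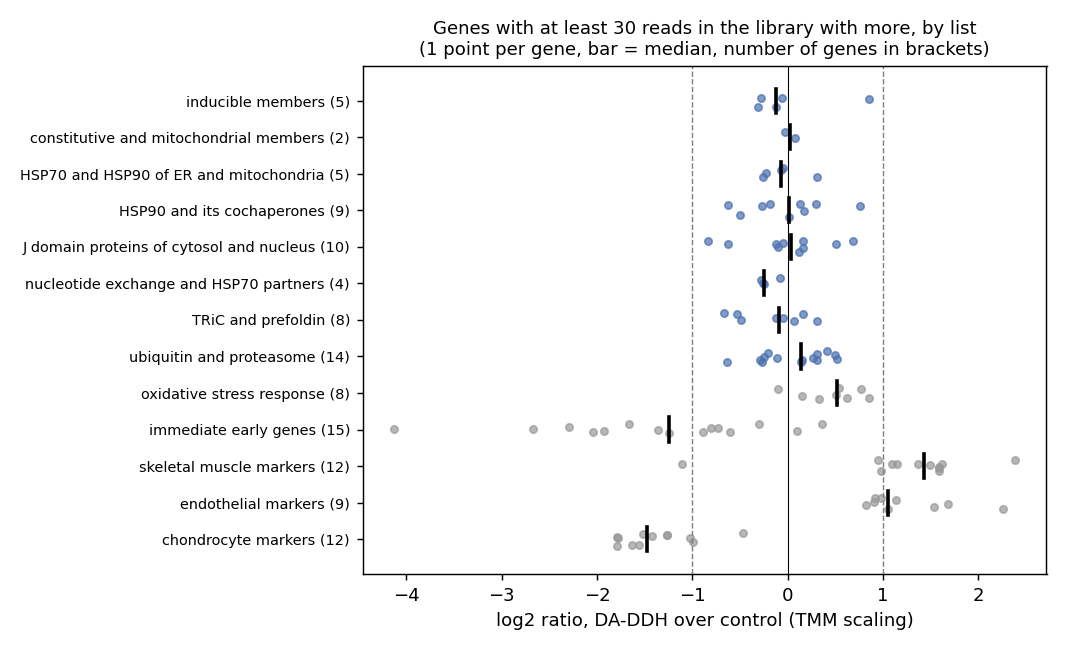
Log2 ratio of DA-DDH over control (x axis) for each gene with at least 30 reads, by list, with a bar at the median. Every gene of the 7 chaperone lists shown lies within the dashed lines at 2-fold with TMM scaling (3 would not with total-count scaling). Immediate early genes reach -4.13, and 9 of 12 skeletal muscle markers lie above 1, beside 4.82% of all 4375 genes.

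The heat shock letters were also read across all genes. Of the 4375 genes with 30 reads, 21 had a window with 3 repeats, and their median log2 ratio was 0.07, beside 0.03 for the 3374 with a window but no such match. Of the 21, 0 were past 2-fold, beside 7.86% of all genes with 30 reads, and 11 were above 0. They ranged from Phrf1 at -0.52 to Sod1 at 0.54, and held besides Hspa8, Hspd1 and Hsph1 the chaperone genes Dnaja1 and Cct4 and Serpinh1, the collagen chaperone HSP47, at -0.51 on 1537 and 1517 reads. Of the 370 genes with 2 repeats, 17 exceeded 2-fold upwards and 9 downwards, or 4.59% and 2.43%, near the 4.82% and 3.04% of all genes. Their median was 0.04 beside 0.02 for the 3025 without. The medians of genes with and without these letters thus differed by little.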

How the data were processed

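The deposited table holds, per gene and library, a signal that the authors made by multiplying gene read counts by 1 factor. All values (100%, relative tolerance 1e-06) were whole multiples of the smallest positive one, 1.20 in control and 0.855 in DA-DDH, so reads were recovered by division. The authors aligned to rn6. TopHat and Cufflinks, with no version, are the tools in the submitters' processing notes. The counter, its use of strand and its treatment of reads that fit several places are not given in the sources used here. The methods name a TruSeq mRNA kit and the labels a SMARTer total RNA kit. The authors' fold change, p, q, rank and call columns were not used.

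Reads were scaled by TMM in edgeR 4.0.16 (R 4.3.3; factors 0.863 and 1.16), with a prior of 0.5 reads shared out by library size, for genes with 30 reads in the library with more. With 1 library per group no count test was run. A 0 was taken to allow 3 reads. Python 3.11.15, scipy 1.17.1 and pandas 2.3.3 served for intervals. These were tested only on counts simulated with Poisson error and the same scaling, which cannot cover variation between pools. Named are all members, Hsp90ab1, Hsf1 and, of each list, mainly genes with the largest absolute ratios, with further genes (such as Egr1, Dnaja1, Hspa9, Cct5, Ubb and Serpinh1) chosen after their values were seen, as were the motif search and the comparisons of Hspe1 with Hspd1 and of chaperones with immediate early genes. Members and lists were chosen with earlier results of these data known. Not every listed gene is reported by name. Alternatives were other scalings, priors, read minimums, fold thresholds and denominators.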

Additional observations from a re-analysis of the deposited data

How the results depend on the processing

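Each group has 1 library, so intervals cover counting error only and no library could be left out. No paired analysis was possible because the groups have 1 sample each. Other priors, the deposited values themselves, and scaling by the upper quartile or by the median of ratios moved no count or median of the members. Total-count scaling moved the median log2 ratio of all genes from 0.03 to 0.45. It gave 1 member more than 2-fold higher (Dnajb1, 1.27), 638 genes higher and 47 lower (beside 211 and 133), and medians of 0.30 for the inducible and 0.45 for the constitutive members, so that Hspa1b, Hsph1, Bag3, Hspb1 and Hspd1 changed sign, at 0.30, 0.11, 0.14, 0.37 and 0.40. With total-count scaling Hspa8 was at 0.50, and both Hspa8 and Hspd1 lay above their TMM intervals. Without Col2a1 in the totals the constitutive median was 0.12. Relative to Gapdh the medians were 0.00085 and 0.15, beside 0.16 over all genes. At a floor of 10 reads 1 member (Hspe1) was more than 2-fold higher, with 722 genes higher and 418 lower. At 100 reads 38 were higher and 50 lower, at a mean of 15 reads 205 were lower, and with no floor 1 member and 1967 genes were higher and 1427 lower. At 1.5-fold 1 member (Dnajb1) was higher, with 631 genes higher and 450 lower. Of the values that answer a comparison, 58 stayed and 20 moved over all alternatives. The ratio of summed inducible members to Hsp90ab1 or to the 3 constitutive members kept its direction.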
